A study of Mus musculus with 4 samples.

Results

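The genes described here present antigen to T cells: 9 mouse genes of the MHC class II pathway and of co-stimulation. They were chosen by name, from their function, but with earlier results of these data known. They are the class II chains H2-Aa, H2-Ab1 and H2-Eb1, the peptide-loading genes H2-DMa and Cd74, the transactivator Ciita, and the co-stimulators Cd80, Cd86 and Cd40. All 9 were found, among the 18193 genes that have a probe set annotated with 1 symbol, and they have 23 of the array's 45101 probe sets. RNA of 2 samples of G-MDSC, the granulocytic kind of myeloid-derived suppressor cell, and of 2 samples of neutrophils was measured, each on its own Affymetrix array. All mice were female C57BL/6, of an age not given in the labels. The G-MDSC (CD11b+Ly6G+Ly6Clow) came from the spleen, 3.5 weeks after EL4 cells, a lymphoma line, had been injected under the skin, and were selected on microbeads for Ly6G. The neutrophils were washed from the peritoneal cavity of mice given 12% casein, a milk protein, in 2 injections of 1.5 ml, with 16 h between them and collection 3 h after the last, and were depleted of F4/80-positive cells before selection for Ly6G. Tissue, tumour, casein and sorting steps went with the cell kind in every sample, so their effects cannot be told apart. Whether replicates were taken from different mice is not given in the labels, so a p-value here reflects no more than how far these arrays spread, and that spread may be technical.

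MHC class II molecules display peptides from ingested proteins to CD4+ T cells. An alpha chain pairs with a beta chain, the invariant chain Cd74 guides the pair to the endosome and fills its groove, and H2-DM exchanges the remaining invariant chain fragment for a peptide. Ciita is recruited to class II promoters by factors that bind their conserved X and Y boxes, and is the switch that interferon gamma and the dendritic cell, macrophage and B cell programmes act on. A T cell also needs co-stimulation: CD80 and CD86 bind CD28 or the inhibitory CTLA-4, and CD40 receives CD40 ligand from the T cell. Resting neutrophils are known as poor presenters of antigen by this route.

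Promoter sequences of 4 of the 9 genes (H2-Aa, H2-Eb1, H2-DMa and Cd80) were matched by symbol in the RefSeq table of build GRCm38.p6, and H2-Ab1, Cd74, Ciita, Cd86 and Cd40 had no entry. The bases just before the start of an alpha and a beta chain gene are shown because these genes carry the X and Y boxes through which Ciita acts. H2-Aa lies on the minus strand (chr17:34287824-34287973) and H2-Eb1 on the plus strand (chr17:34305717-34305866). Both are written 5′ to 3′ along the gene, and end at the base before the start. Capitals mark GCAACT, the core of the X box, and GATTGG, the core of the Y box.
H2-Aa: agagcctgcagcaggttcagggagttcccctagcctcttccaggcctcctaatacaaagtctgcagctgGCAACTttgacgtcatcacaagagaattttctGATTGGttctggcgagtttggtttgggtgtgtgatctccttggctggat
H2-Eb1: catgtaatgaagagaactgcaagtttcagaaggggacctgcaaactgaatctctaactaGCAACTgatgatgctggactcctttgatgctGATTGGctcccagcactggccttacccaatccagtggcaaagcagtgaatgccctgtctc
The letters GCAACT began 81 bases before the start of H2-Aa and 91 bases before that of H2-Eb1, and GATTGG followed after 26 and 25 bases. The search covered the whole RefSeq promoter window, which is longer than the stretches printed and reaches past the start. On both strands, GCAACT was found in 10.9% and GATTGG in 16.1% of 32851 windows of that length, and the first followed by the second on 1 strand in 0.457%. The motifs do not overlap. H2-Eb1 also holds GATTGG on the opposite strand, left in lower case. The Cd80 promoter held GCAACT on the opposite strand and no GATTGG. Of 2 listed H2-DMa starts, neither held GCAACT and 1 held GATTGG. A match describes these letters and not a site in use. Only these exact letters were searched for, so a missing match does not show that a box is absent.

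Values are the authors' signals in arbitrary units, with the same trimmed mean on each array. Differences are G-MDSC minus neutrophils in log2(signal + 16), a scale that understates the change of dim genes, and a gene is represented by its brightest probe set. Low signals were higher on neutrophils replicate 2, where the 40th percentile was 132.7, against 45.7 to 52.6 on the other 3 arrays. Over the 13139 genes tested with limma, 1058 (8.05%) were called lower and 1091 (8.30%) higher in G-MDSC at an adjusted p under 0.05, and the median gene differed by -0.18 (0.06 with median scaling and -0.01 with quantile normalization of the arrays). Markers of the labelled cell type were bright in both groups for some genes and far dimmer in the neutrophils for others. S100a8, a neutrophil calgranulin, had signals of 53178 and 61944 in G-MDSC and 58668 and 85891 in the neutrophils, a difference within the replicate spread. Of 11 neutrophil markers tested, 5 were higher and 0 lower in G-MDSC, or 8 higher with quantile normalization. Among the 5 were the granule genes Mpo (5.12 ± 0.39) and Camp (5.10 ± 0.37). Mpo had 8580 and 3980 in G-MDSC against 149.6 and 156.5 in the neutrophils, and Camp 30456 and 30836 against 1277 and 600.4. Ly6g was not analysed here.

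Most of the class II and co-stimulation genes were lower in G-MDSC than in casein-elicited neutrophils. By limma, 7 of the 9 were called lower and 0 higher, against a background of 8.05% and 8.30% of all genes. All 3 class II chains, both loading genes, Cd80 and Cd40 were called, while Ciita and Cd86 did not pass. In each of the 9, both G-MDSC arrays were below both neutrophil arrays, which held for 32.2% of all genes tested, while the opposite order held for 27.3%. The differences ran from -2.64 to -0.67, with a median of -1.36 against -0.18 over all genes, and from -2.45 to -0.49 relative to the median gene. The order of the 9 differences was not tested. When each array was left out in turn, all 9 differences stayed negative but their size moved. They ran from -3.14 to -2.13 for Cd80 and from -2.29 to -1.23 for H2-Ab1. Several calls were lost when 1 G-MDSC array was left out, as given for each gene below. More genes of the array passed without either neutrophil array than in the full fit. A call kept or gained in those fits therefore says little. The number called lower was 3 with median scaling of the arrays, 1 without the intensity trend and 0 without moderation across genes. In the fit without moderation, 7 were lower at an unadjusted p under 0.05. The summed signal of 13 macrophage markers was also lower in both G-MDSC arrays (16625 and 16899 against 43688 and 63254). Csf1r, which was not called, made up most of both G-MDSC sums (11012 and 11272, against 16081 and 17388 in the neutrophils). The part of such cells in the differences of the 9 genes was not tested. In bulk samples, fewer cells of a type and less RNA per cell cannot be told apart.

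**Figure D1:**
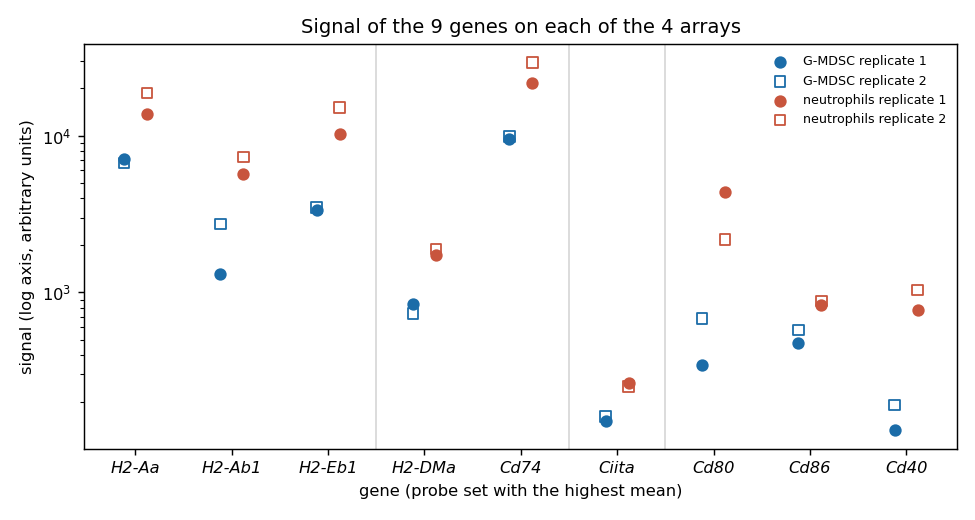
Signal of each gene's brightest probe set (log axis, arbitrary units) on the 2 G-MDSC arrays (blue) and the 2 neutrophil arrays (red), where filled circles are replicate 1 and open squares replicate 2. Both neutrophil points lie above both G-MDSC points for all 9 genes, and the gap is widest for Cd80 and Cd40 and narrowest for Ciita and Cd86.

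All 3 class II chains were called lower. For H2-Eb1, the beta chain of the I-E molecule, the signal was 3372 and 3482 in G-MDSC against 10210 and 15140 in the neutrophils. The G-MDSC arrays were close to each other, and the lowest neutrophil value was 2.93 times the highest G-MDSC value. The log2 difference was -1.85 ± 0.31 (SE, n = 2 arrays per group; limma adjusted p = 0.00257). H2-Ab1, the beta chain of I-A, had signals of 1303 and 2738 in G-MDSC and 5665 and 7298 in the neutrophils. On this probe set the G-MDSC replicates of H2-Ab1 were 2.1-fold apart but still below both neutrophil arrays, with a difference of -1.76 ± 0.37 (limma adjusted p = 0.00893). H2-Aa, the alpha chain of I-A, had 7053 and 6679 in G-MDSC and 13808.5 and 18666 in the neutrophils. Its groups did not overlap, and its difference was -1.22 ± 0.31 (limma adjusted p = 0.0192). The call of H2-Aa was lost without G-MDSC replicate 1 (adjusted p = 0.123) and without G-MDSC replicate 2 (0.168), and that of H2-Ab1 without G-MDSC replicate 1 (0.128), while H2-Eb1 stayed called without any 1 array.

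Several probe sets measured the chains of I-A. The other 3 probe sets of H2-Aa gave -1.60, -1.67 and -1.41, and the other 2 of H2-Ab1 gave -1.84 and -1.79, and all were called lower when each kept probe set was tested on its own. Names ending in x_at or s_at mark probe sets that can also take signal from related genes. This applies to all 4 of H2-Aa and to 2 of the 3 of H2-Ab1, whereas the 1 of H2-Eb1 is not of these kinds. H2-Ea, the partner of H2-Eb1, is known to be disrupted in C57BL/6 mice. Its probe sets were dim: the brightest single value was 82.6, 1 value was above its array's 40th percentile, and the gene was not tested.

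The loading genes were lower as well. Cd74, the invariant chain, had 9579 and 9898 in G-MDSC against 21504 and 29307 in the neutrophils. The G-MDSC arrays agreed closely and the groups did not overlap. Its difference was -1.36 ± 0.31 (SE, n = 2 arrays per group; limma adjusted p = 0.0120). H2-DMa, the alpha chain of the peptide exchanger, had 844.5 and 735.3 in G-MDSC against 1735 and 1896 in the neutrophils, a difference of -1.19 ± 0.31 (limma adjusted p = 0.0227). Both calls were lost without G-MDSC replicate 1 (adjusted p = 0.103 for Cd74 and 0.136 for H2-DMa) and without G-MDSC replicate 2 (0.0854 and 0.249). With median scaling the differences were -1.13 and -0.95 and neither passed (adjusted p = 0.0767 and 0.124), nor did H2-Aa (0.119) or H2-Ab1 (0.0582). A second probe set of H2-DMa was dim, with signals of 38.5 and 49.5 in G-MDSC and 65.9 and 32.6 in the neutrophils, and was not tested.

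Ciita, the transactivator, was measured at low signals and did not pass the test. Its brightest probe set gave 150.5 and 161.4 in G-MDSC and 264.3 and 250.9 in the neutrophils. The neutrophil arrays were higher, by a log2 difference of -0.67 ± 0.42 (SE, n = 2 arrays per group; limma adjusted p = 0.318), and the 95% interval ran from -1.59 to 0.25. Another kept probe set showed no such gap, with 222.9 and 164.6 in G-MDSC and 213.2 and 175.6 in the neutrophils, and the remaining Ciita probe set, with signals of 3.74 to 38.8, was below the 40th percentile on all 4 arrays. A miss of the threshold does not show that the level of Ciita was the same in both groups.

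The co-stimulators Cd80 and Cd40 were both called lower. Cd80, a ligand of CD28 and CTLA-4, had signals of 342.4 and 680.5 in G-MDSC and 4392 and 2173 in the neutrophils. Replicates were about as far apart in each group, and the lowest neutrophil value was 3.19 times the highest G-MDSC value. The difference was -2.64 ± 0.42 (SE, n = 2 arrays per group; limma adjusted p = 0.00192). The other 2 kept probe sets of Cd80 gave -2.65 and -2.33, and the remaining one, with signals of 8.29 to 73.9, was dim on all arrays. Cd40, the receptor for CD40 ligand, had 131.8 and 190.8 in G-MDSC and 769.6 and 1035 in the neutrophils. The lowest neutrophil value was 4.03 times the highest G-MDSC value, the widest gap of the 9 genes, and the difference was -2.38 ± 0.37 (limma adjusted p = 0.00167). Its other 2 probe sets, both of the s_at kind, gave larger differences, -3.12 and -3.01, so that the median of its probe sets was -3.01, over 1.5 times the fold of the brightest. Both genes stayed called without any 1 array and with median scaling.

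Cd86, the second CD28 ligand, depended on the probe set. The brightest gave 476.7 and 577.6 in G-MDSC and 828.4 and 883.1 in the neutrophils, with a difference of -0.69 ± 0.32 that was not called (SE, n = 2 arrays per group; limma adjusted p = 0.183; 95% interval -1.40 to 0.02). The other gave 168.3 and 387.1 in G-MDSC and 802.4 and 1067 in the neutrophils, a difference of -1.79 ± 0.43 that was called when each probe set was tested on its own (adjusted p = 0.0261). Both probe sets put the neutrophils above G-MDSC without overlap. With the median of its probe sets Cd86 was called (-1.24, adjusted p = 0.0349), and the number of genes called lower was then 8 of 9.

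**Figure D2:**
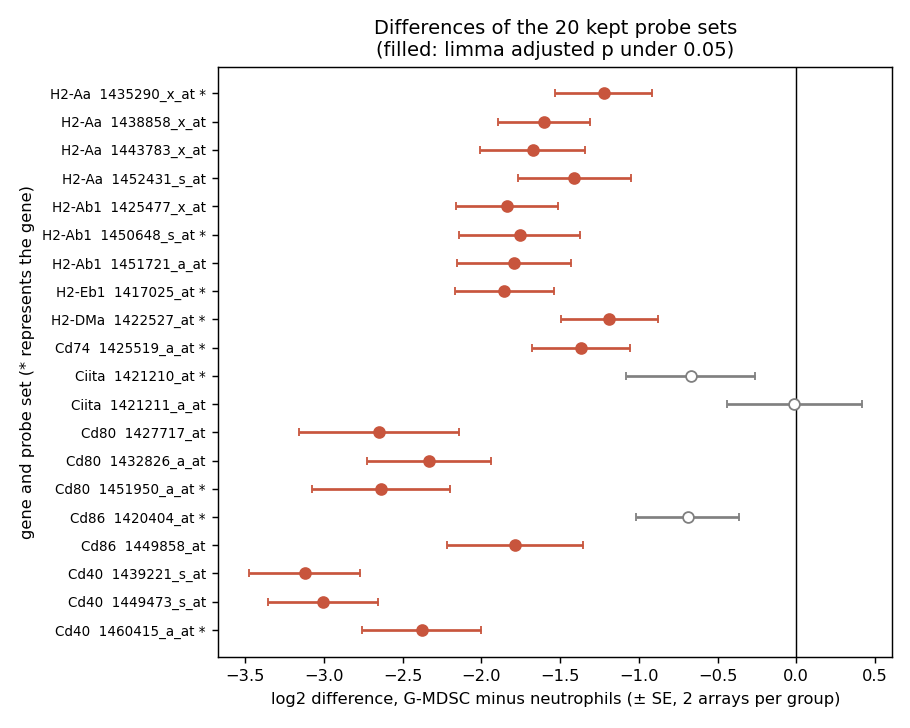
Log2 difference (G-MDSC minus neutrophils) with its SE, 2 arrays per group, for each of the 20 kept probe sets of the 9 genes, where filled points passed an adjusted p of 0.05 and a star marks the probe set that represents the gene. Of the 20, 17 were called lower and 0 higher, and the 3 open points are both probe sets of Ciita and 1 of Cd86.

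Over all probe sets, 20 of 23 passed the filter on low signals, and all 20 were above the 40th percentile on all 4 arrays, so that none passed through 1 group alone. By limma, 17 of the 20 were called lower, against 6.13% of 23403 probe sets tested. In 19 of the 20 the groups did not overlap and neutrophils were higher, against 31.1% of all probe sets. The exception was the Ciita probe set already given.

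The 9 genes differed in how far apart their replicates lay. From replicate 1 to replicate 2 of the neutrophils, the signals of the 3 chains and Cd74 differed by ratios of 1.29 to 1.48, that of Cd40 by 1.35 and that of Cd80 by 0.495, against 1.20 for the median gene. By these probe sets, Cd80 was the brighter on the neutrophil array where the class II chains and Cd40 were the dimmer. Other probe sets of H2-Aa fell from replicate 1 to 2 (15394 to 13787 and 1024 to 903.9) or rose (4710 to 9051). Those of Cd40 hardly moved (1073 to 1103 and 1060 to 1081). In G-MDSC the ratios of H2-Ab1 and Cd80 were 2.10 and 1.99, against 0.947 to 1.07 for H2-Aa, H2-Eb1, Cd74 and Ciita and 1.02 for the median gene. These too are of the brightest probe sets. The other probe sets of H2-Ab1 lay closer in G-MDSC (536.7 and 546.4, and 1089 and 1207), and another of Ciita lay further apart (222.9 and 164.6). With 2 arrays in a group, these ratios have no error and were not tested.

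None of the other genes of class II assembly was called lower. Of 6 further chain and loading genes, 5 had a probe set of their own and 4 were tested, with 0 called in either direction by limma and 2 at an unadjusted p under 0.05. H2-DMb2, a beta chain of the peptide exchanger, had signals of 1824 and 1964 in G-MDSC and 2751 and 2875 in the neutrophils (-0.57 ± 0.29, adjusted p = 0.227). H2-Ob, a chain of H2-DO, which restrains peptide exchange and is known from B cells, was the brighter in G-MDSC, with 959.1 and 864.6 against 350.0 and 522.6 (1.06 ± 0.34, adjusted p = 0.0574). Its partner H2-Oa, singled out after its values were seen, had 624.1 and 568.4 against 299.2 and 239.3 (1.11 ± 0.35, adjusted p = 0.0525). For both chains of H2-DO the groups did not overlap, in the direction opposite to that of the 9 genes. Both were called higher with median scaling, a floor at the 40th percentile, a filter at the 60th percentile, or a replicate block. The difference of H2-Ob was 0.78 without neutrophils replicate 1 and 1.34 without neutrophils replicate 2.

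Of 10 genes of class II proteolysis and turnover, 2 were called lower by limma and 0 higher. Lgmn, the endosomal protease legumain, had signals of 473.7 and 425.5 in G-MDSC and 2231 and 4343 in the neutrophils (-2.75 ± 0.37, limma adjusted p = 0.000678). Ifi30, the thiol reductase that unfolds antigens, had 2062 and 1577 against 10622 and 9911 (-2.50 ± 0.30, adjusted p = 0.000363). In both genes the groups were well apart, and the list's median was -0.84. The difference of Lgmn was -3.23 without neutrophils replicate 1 and -2.27 without neutrophils replicate 2.

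None of 7 factors that bind class II promoters was called by limma, and 2 had an unadjusted p under 0.05. The list's 2 genes of highest signal were Nfyc, a subunit of the Y box factor NF-Y, with 2441 and 2536 in G-MDSC and 1633 and 1605 in the neutrophils (0.62 ± 0.30, adjusted p = 0.191), and Creb1, with 2544 and 2027 against 2890 and 1151 (0.31 ± 0.41, adjusted p = 0.645), whose sign turned without neutrophils replicate 2 (-0.35) and with the median of its probe sets (-0.08), and which was called without neutrophils replicate 1 (0.97). Rfx5, a subunit of the X box factor, was singled out after its values were seen as the 1 factor whose neutrophil arrays were both the higher: 330.1 and 245.1 in G-MDSC against 676.6 and 568.6 (-1.08 ± 0.35, adjusted p = 0.0600). The list median was 0.31. For Rfx5 the difference was -0.96 without neutrophils replicate 1 and -1.20 without neutrophils replicate 2. By limma it was called lower with the floor, the 60th percentile filter and the replicate block (adjusted p = 0.0411, 0.0418 and 0.0280). With median scaling Rfx5 was not called (limma adjusted p = 0.153).

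Of 7 tested genes that carry the interferon gamma signal to Ciita, 2 were higher and 0 lower in G-MDSC. Ifngr1, the ligand-binding receptor chain, had signals of 4327 and 7310 in G-MDSC and 2119 and 2483 in the neutrophils (1.29 ± 0.33, limma adjusted p = 0.0229). Usf1, a factor of the interferon-responsive Ciita promoter, had 1581 and 1391 against 634.2 and 340.3 (1.64 ± 0.36, adjusted p = 0.0109). Their direction was opposite to that of the class II genes. The call of Usf1 was lost without G-MDSC replicate 1 (adjusted p = 0.0859), and that of Ifngr1 without G-MDSC replicate 2 (0.361) and with quantile normalization (0.0577). The difference of Usf1 was 2.07 without neutrophils replicate 1 and 1.20 without neutrophils replicate 2.

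Class I presentation, the route that displays peptides made inside the cell, had 3 of 14 genes lower and 0 higher, with a list median of -0.38. Among them were Calr, the chaperone calreticulin (-1.53 ± 0.30, limma adjusted p = 0.00625), with 6222 and 4653 in G-MDSC and 15633 and 15469 in the neutrophils, and Psmb10, an immunoproteasome subunit (-1.36 ± 0.32, adjusted p = 0.0139), with 1025 and 1524 against 3240 and 3232. The call of Calr was lost without G-MDSC replicate 2 (adjusted p = 0.102) and that of Psmb10 without G-MDSC replicate 1 (0.224). Under median scaling 0 genes of the list were called. The difference of Calr was -1.52 without neutrophils replicate 1 and -1.54 without neutrophils replicate 2.

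Other ligands for T cells split in direction. Of 13 tested, 7 were lower and 1 higher in G-MDSC, with a median of -1.66. Among the 7 were Icam1, the adhesion ligand of LFA-1 (-4.59 ± 0.37, limma adjusted p = 2.5e-05), with 420.6 and 850.3 in G-MDSC against 16763 and 13065 in the neutrophils, and Pvr, a ligand of CD226 and TIGIT (-3.05 ± 0.41, adjusted p = 0.000694), with 69.4 and 74.1 against 595.2 and 851.7. Vsir, the inhibitory ligand VISTA, was the 1 that rose: 9438 and 9470 in G-MDSC against 4146 and 1584 in the neutrophils (1.88 ± 0.41, adjusted p = 0.0102), or 2.57 without neutrophils replicate 1 and 1.19 without neutrophils replicate 2. The inhibitory PD-1 ligands Cd274 and Pdcd1lg2, named after their values were seen, were among the 7 (-2.98 ± 0.49 and -2.19 ± 0.42). Cd274 had 799.6 and 2994 in G-MDSC against 11873 and 12822 in the neutrophils, and its difference was -2.04 without G-MDSC replicate 1 and -3.92 without G-MDSC replicate 2. The call of Pdcd1lg2 was lost without G-MDSC replicate 1 (adjusted p = 0.0760). For Icam1 the difference was -4.41 without neutrophils replicate 1 and -4.77 without neutrophils replicate 2.

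Of 8 genes of the CD40 signal tested, 4 were lower and 0 higher, with a median of -0.85. Traf1, an adaptor of the receptor, had signals of 259.4 and 458.6 in G-MDSC and 9343 and 4041 in the neutrophils (-4.09 ± 0.43, limma adjusted p = 0.000136), or -3.49 without neutrophils replicate 1 and -4.69 without neutrophils replicate 2. Relb, the alternative NF-kappaB subunit, had 391.6 and 363.5 against 4552 and 2736 (-3.17 ± 0.34, adjusted p = 0.000165). Both genes were the brighter on neutrophils replicate 1, as was Cd80. Of the receptors that T cells use for these ligands, 4 of 6 were tested and 1, Ctla4, was lower in G-MDSC. Its signals were 117.5 and 55.4 against 591.5 and 456.3 (-2.46 ± 0.46, limma adjusted p = 0.00452).

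**Figure D3:**
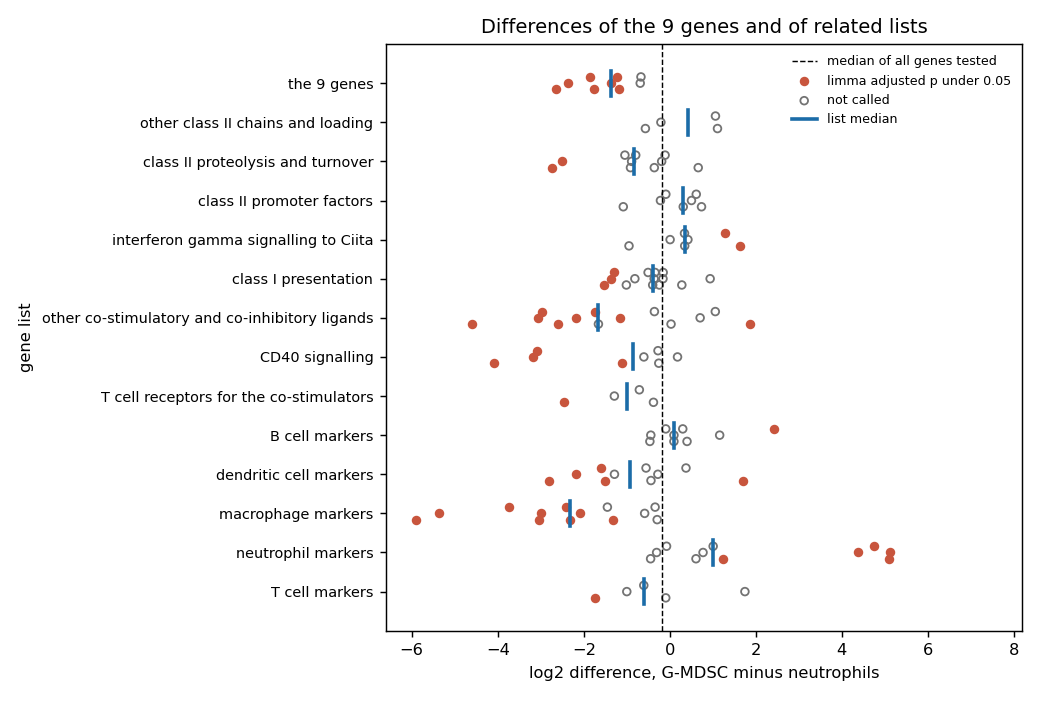
Log2 difference (G-MDSC minus neutrophils) of every tested gene in the 9 genes and in 13 related lists, where red points passed a limma adjusted p of 0.05, open points did not, blue bars are list medians and the dashed line is the median of all genes (-0.18). The 9 genes lie wholly to the left of the dashed line, as do the macrophage markers and the T cell receptors for the co-stimulators. The other lists, among them the promoter factors and the interferon gamma genes, lie on both sides of it.

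Markers of other cell types that carry class II moved with the groups in part. Of 13 macrophage markers tested, 9 were lower and 0 higher in G-MDSC. Adgre1, singled out after its values were seen because it encodes F4/80, the antigen depleted from the neutrophils, had 816.9 and 643.1 in G-MDSC against 4847 and 7136 in the neutrophils (-2.99 ± 0.32, limma adjusted p = 0.000172). The scavenger receptors Msr1 (65.1 and 75.1 against 4447 and 5821) and Marco (24.9 and 90.6 against 3142 and 2311) were among the 9 (-5.89 ± 0.33 and -5.36 ± 0.46). The difference of Marco was -4.67 without G-MDSC replicate 1 and -6.05 without G-MDSC replicate 2. Of 10 dendritic cell markers tested, 4 were lower and 1, Ly75 (666.1 and 285.7 against 168.5 and 88.2), was higher, with a summed signal of 4142 and 3419 against 9582 and 6005. Flt3, Zbtb46, Itgax, Xcr1 and Siglech were not called, and all of these but Itgax were dim. Itgax, with Ccr7 and Fscn1, which were called lower, made up most of the sum on each array. Cd209a, the lectin DC-SIGN, had 47.7 and 65.4 against 299.6 and 782.6 (-2.80 ± 0.53, limma adjusted p = 0.00500), or -3.47 and -2.13 without neutrophils replicates 1 and 2. Batf3, a factor of cross-presenting dendritic cells, had 101.6 and 71.8 against 608.3 and 327.1 (-2.19 ± 0.47, adjusted p = 0.00886), a call lost without G-MDSC replicate 2 (0.0606). With median scaling 2 dendritic cell markers were lower. The call of Ly75 was lost with quantile normalization (limma adjusted p = 0.0621) and without G-MDSC replicate 1, where its difference was 1.12. The part of dendritic cells in the differences of the class II genes was not tested either.

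None of the B cell markers was called lower. Of 9 tested, 1 was higher and 0 lower in G-MDSC. Their summed signal overlapped between the groups, at 10153 and 10395 in G-MDSC and 8208 and 10684 in the neutrophils. Ms4a1, which encodes CD20 and was singled out after its values were seen, was bright throughout, with 3275 and 4084 against 2751 and 4256. Cr2, a complement receptor of mature B cells, had 885.7 and 792.1 in G-MDSC against 59.4 and 320.4 in the neutrophils (2.42 ± 0.58, limma adjusted p = 0.0152), or 1.34 without neutrophils replicate 1 and 3.50 without neutrophils replicate 2. Of 5 T cell markers tested, 1, Cd2 (151.5 and 177.2 against 493.5 and 697.9), was lower. Its call was lost when G-MDSC replicate 1 or 2 was left out (differences of -1.64 and -1.85). The summed signal was 651.2 and 426.3 in G-MDSC against 886.0 and 932.1 in the neutrophils, and Cd2 made up most of both neutrophil sums. Cd3d was the higher in G-MDSC (291.2 and 156.1 against 139.6 and 14.2). Cd3g and Thy1, both dim, were the lower there. In these genes the groups did not overlap, and none was called. Cd3e, the defining T cell receptor subunit, lay between 39.2 and 79.9 on all arrays. No tested marker had a signal of 0.

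**Figure D4:**
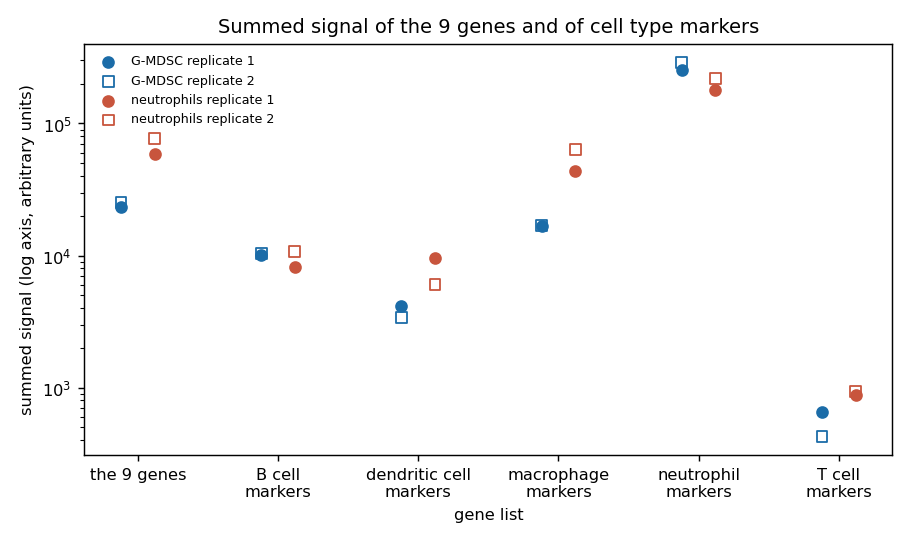
Summed signal (log axis, arbitrary units) of the 9 genes and of the tested markers of 5 cell types on each array, with G-MDSC in blue, neutrophils in red, replicate 1 as filled circles and replicate 2 as open squares. The sums of the 9 genes and of the macrophage, dendritic cell and T cell markers are higher on both neutrophil arrays, where Cd2 makes up most of the T cell sum. Those of the neutrophil markers are lower there, and those of the B cell markers overlap between the groups.

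The genes whose values over the 4 arrays lay nearest to those of a member were found for Cd74 and Cd86 by the Euclidean distance between log2 values, each gene centred on its own mean. Nearest to Cd74 were Hint1, Mif and Tspan31, at distances of 0.0592, 0.0798 and 0.0875. Mif, a cytokine, had signals of 4266.5 and 4411 in G-MDSC and 9960 and 12556 in the neutrophils, the same order of arrays as Cd74. Nearest to Cd86 were Trim44, Rgs9 and Zkscan17, at 0.0288, 0.0450 and 0.0502. With 4 arrays and 13139 genes, small distances are found for many genes, and the list describes these arrays alone.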

How the data were processed

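Total RNA (100 ng per sample) was hybridised to Affymetrix arrays, 1 per sample and 2 per group. Per the submitters' processing notes, which name GCOS 1.4 and MAS5, the authors deposited linear intensity values, here found to be scaled to a 2% trimmed mean of 500 on each array. Further settings are not given in the sources used here. The number of arrays limits the precision. Of 45101 probe sets, 34945 have 1 gene symbol, 932 several and 9160 none, by the platform annotation, and 64 are controls. Of those with 1 symbol, 34741 were matched by gene ID to RefSeq (GRCm38.p6).

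The probe sets kept were above the 40th percentile of their array in at least 2 of 4 arrays (28754), and the one with the highest mean stood for its gene. Differences were fitted with limma 3.58.1 (R 4.3.3; lmFit, eBayes with intensity trend; two-sided, Benjamini-Hochberg over 13139 genes, threshold 0.05). An exact permutation test cannot go below 0.333 here. Figures and motif searches used Python 3.11.15. The fit was tested on simulated data with 200 of 13139 genes changed, and with independent normal noise set by intensity alone. There it recovered 19.4% of 2-fold, 75.8% of 4-fold and 91.5% of 8-fold changes. Far more genes were called in the real data, and recovery depends on the share changed. These percentages are therefore not the power of the fit in these data.

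The 9 genes and all lists were chosen with earlier results of these data known. Named from each list were up to 2 called genes per direction, or the 2 brightest of a pathway list with none called. The 17 alternatives were other pseudocounts (1 and 64), a floor, filters, normalizations, variance models and probe set choices, a replicate block, and each array left out in turn.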

Additional observations from a re-analysis of the deposited data

How the results depend on the processing

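Under the 16 alternatives that give 1 value per gene, all 144 differences of the 9 genes stayed negative. Of these, 119 kept their side of the threshold, 24 no longer passed and 1 newly passed. With 2 arrays per group the calls rest on variance shared across genes. Without moderation limma called 0 genes and 0 of the 9 (2379 and 7 at an unadjusted p under 0.05). If the intensity trend was dropped, 479 genes and 1 of the 9, Cd40, were called. Median scaling left 3 of the 9 called lower. Leaving out 1 array gave between 1003 and 5891 genes and between 3 and 7 of the 9; the lone array of a group is then assumed to vary like the others. With the replicate number as a block, 3306 genes and 7 of the 9 were called, and 3308 genes with quantile normalization as well. Deviations of same-numbered arrays correlated (r = 0.296), but with 2 pairs and no label on pairing the arrays share only a number. Of 442 counts for the related lists, 81 moved, either by over 1.5 times or to or from 0. The cause of these changes was not tested.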
